A study of Homo sapiens with 8 samples.

Results

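The genes described here make, move and break down the catecholamines, and were taken by name: TH, DDC, DBH, PNMT, SLC6A2, SLC18A1, SLC18A2, MAOA and MAOB. All 9 were found among the 52719 genes into which the transcripts of the data were summed. RNA was sequenced from SH-SY5Y, a human neuroblastoma cell line of sympathetic origin, in 8 libraries. Of these, 4 came from undifferentiated cells (replicates 17 to 20) and 4 from cells differentiated with 9-cis retinoic acid at 1 µM for 7 days (replicates 21 to 24). All cells were grown in the same medium with foetal calf serum. The labels give neither a vehicle nor a time in culture for the undifferentiated cells, so time in culture and treatment cannot be told apart. The labels do not say whether replicates came from separate cultures. The p-values therefore refer to the spread among these 8 libraries, and that spread may be technical.

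Catecholamines are made from tyrosine in a chain of enzymes. Tyrosine hydroxylase (TH) makes L-DOPA, aromatic L-amino acid decarboxylase (DDC) turns it into dopamine, dopamine beta-hydroxylase (DBH) turns dopamine into noradrenaline inside vesicles, and phenylethanolamine N-methyltransferase (PNMT) turns noradrenaline into adrenaline. The vesicular transporters SLC18A1 (VMAT1) and SLC18A2 (VMAT2) load the vesicles, the noradrenaline transporter SLC6A2 takes released noradrenaline back into the cell, and the monoamine oxidases MAOA and MAOB on the outer mitochondrial membrane break amines down. Sympathetic neurons end the chain at noradrenaline, and adrenal chromaffin cells, which also express PNMT, go on to adrenaline.

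Levels are in TPM, a gene's share of a library's transcripts corrected for their length, on a scale where each library sums to 1000000. Levels of different genes can therefore be set side by side. TPM keeps no record of read depth, and no interval for counting error was computed. From 16265 to 17370 genes per library had 1 TPM or more. Lane 7 held undifferentiated replicates 17 and 18, and lane 8 the other 6 libraries. Of 11 markers of noradrenergic neuroblastoma, among them ISL1, CHGA and HAND2, all had a mean of 1 TPM or more. Their summed level was 2301 to 2372 TPM in undifferentiated and 1496 to 1750 TPM in differentiated libraries. The markers did not all move with the sum. PHOX2A rose (group means 224 and 427 TPM) and HAND2 was not called (440 and 422 TPM), while the others of this list were called lower. Of 7 markers of midbrain dopamine neurons, TH and the dopamine transporter SLC6A3 among them, 0 had a mean of 1 TPM or more. They summed to 0.101 to 0.183 and 0.0777 to 0.286 TPM, with FOXA2 and ALDH1A1 listed at 0 in all libraries. Of 4 chromaffin cell markers (PNMT, PENK, CHGA and DLK1) 3 reached it. The list summed to 357 to 397 TPM in undifferentiated and 45.5 to 55.8 TPM in differentiated libraries. This fall lay in CHGA (group means 220 and 27.4 TPM), which is also on the noradrenergic list, and in DLK1 (163 and 20.8 TPM). PNMT was not called, and PENK was listed at 0 in all libraries. None of the 4 endothelial and 6 blood cell markers found reached a mean of 1 TPM, and either list summed to under 1 TPM in every library. The 9 mesenchymal markers, VIM, FN1 and COL3A1 among the 7 that reached it, summed to 275 to 300 TPM in undifferentiated and 1139 to 1256 TPM in differentiated libraries. Those that did not reach it were COL1A2 (group means 0.142 and 0.143 TPM) and PRRX1 (0.00302 and 0.00249 TPM). Of 8 Schwann cell markers 3 reached it, and the list summed to 7.13 to 9.15 and 16.0 to 19.1 TPM, with SOX10, its defining factor, listed at 0 throughout. Of 5 epithelial markers 1 reached it, with KRT5 and KRT14 listed at 0 and sums of 1.43 to 2.19 and 1.44 to 2.22 TPM. The part of these markers in the results below was not tested. In bulk RNA, fewer cells of a type and less RNA per cell cannot be told apart.

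Promoter sequences are given for the genes on which the results turn, to show what lies upstream of a gene that fell (DDC, DBH), a gene that rose (MAOB), its paralog that was not called (MAOA) and the vesicular transporter that stayed under 1 TPM (SLC18A2). They come from RefSeq on GRCh38.p14, which held entries for 5 of the 9 genes (6 starts, since DDC has 2), and run 5′ to 3′ on the gene's own strand. The stretch is the 250 bases before the start of transcription, less any bases that GENCODE 29 places in an exon of the gene. For DBH and MAOA the whole stretch lies in an annotated exon, so only a site of 30 bases is printed. Capitals mark matches on either strand to any of 5 motifs. TGACG is the core of a cyclic AMP response element. CANNTG is the E-box. TAAT is the core that homeodomain factors bind. GGGCGG is the GC box. AGGTCA is the core element of nuclear receptors, the retinoic acid receptors among them. Matches that overlap run together.

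DDC, neuronal-type start, chr7:50561072-50561321, minus strand: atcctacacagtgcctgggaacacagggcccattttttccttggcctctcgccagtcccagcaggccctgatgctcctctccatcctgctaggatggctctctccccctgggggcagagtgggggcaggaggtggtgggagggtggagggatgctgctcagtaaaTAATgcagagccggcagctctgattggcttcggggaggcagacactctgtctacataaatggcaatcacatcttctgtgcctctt
DDC, upstream start, chr7:50565458-50565655, minus strand: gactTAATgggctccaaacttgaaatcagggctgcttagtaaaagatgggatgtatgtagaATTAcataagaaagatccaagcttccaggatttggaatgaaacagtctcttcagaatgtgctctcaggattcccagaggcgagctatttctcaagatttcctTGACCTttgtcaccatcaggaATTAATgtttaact
DBH, site, chr9:133636182-133636211, plus strand: TGACGtcCATGTGtcATTAgtgccaATTAg
MAOB, chrX:43882451-43882700, minus strand: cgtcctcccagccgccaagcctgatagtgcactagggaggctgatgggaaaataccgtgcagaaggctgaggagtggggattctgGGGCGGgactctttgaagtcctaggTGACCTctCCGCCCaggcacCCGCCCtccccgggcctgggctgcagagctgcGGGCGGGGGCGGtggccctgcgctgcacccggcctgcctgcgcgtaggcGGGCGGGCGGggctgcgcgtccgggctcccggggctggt
MAOA, site, chrX:43656088-43656117, plus strand: cagtacaagggtCCGCCCcgctctcagtgc
SLC18A2, chr10:117240864-117241072, plus strand: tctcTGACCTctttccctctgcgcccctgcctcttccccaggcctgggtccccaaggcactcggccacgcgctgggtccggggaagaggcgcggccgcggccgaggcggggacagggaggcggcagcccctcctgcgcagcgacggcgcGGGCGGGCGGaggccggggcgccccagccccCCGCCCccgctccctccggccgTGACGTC

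Over the full 250 bases, MAOB held 7 GC boxes, MAOA 4 and SLC18A2 3, and neither DBH nor either DDC start held any. At least 1 GC box was found in 42.6% of 35116 RefSeq windows of the same length. The DBH window held 1 TGACG match, 3 E-boxes and 3 TAAT cores, and the 30 bases printed carry the TGACG match, 1 E-box and 2 of the TAAT cores. At least 1 TGACG match was found in 21.2% of windows, at least 1 E-box in 61.8% and at least 1 TAAT core in 47.4%. The neuronal-type DDC window held a single match, to TAAT. The nuclear receptor element AGGTCA, present in 12.1% of windows, occurred once each in MAOB, SLC18A2 and the upstream DDC start. A match is a string of letters and shows no binding.

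The comparison asks which steps of the chain differ between cells given 9-cis retinoic acid and undifferentiated cells. The middle of the chain was lower in differentiated cells: DDC fell 7.01-fold and DBH 5.18-fold by the ratio of group means. Of the transporters, SLC6A2 fell 2.03-fold and SLC18A1 1.23-fold, the latter a call lost in some of the alternatives below. MAOB rose 3.77-fold. TH and SLC18A2 were under 1 TPM in every library of both groups, and PNMT and MAOA did not pass the test. Of the 9 genes, 7 had the mean of 1 TPM needed for testing. limma (adjusted p under 0.05, adjusted over 17077 tested genes, on log2(TPM+1)) called 1 of the 7 higher and 4 lower, where 33.9% of all tested genes were called higher and 17.4% lower. This background depended on scaling: 26.6% were called higher and 26.2% lower after median-of-ratios scaling, and 24.4% and 29.9% after quantile normalization, where 1 of the 7 was called higher and 4 and 5 lower. The median log2 fold change of the 7 genes was -0.29, and that of all tested genes 0.10.

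**Figure D1:**
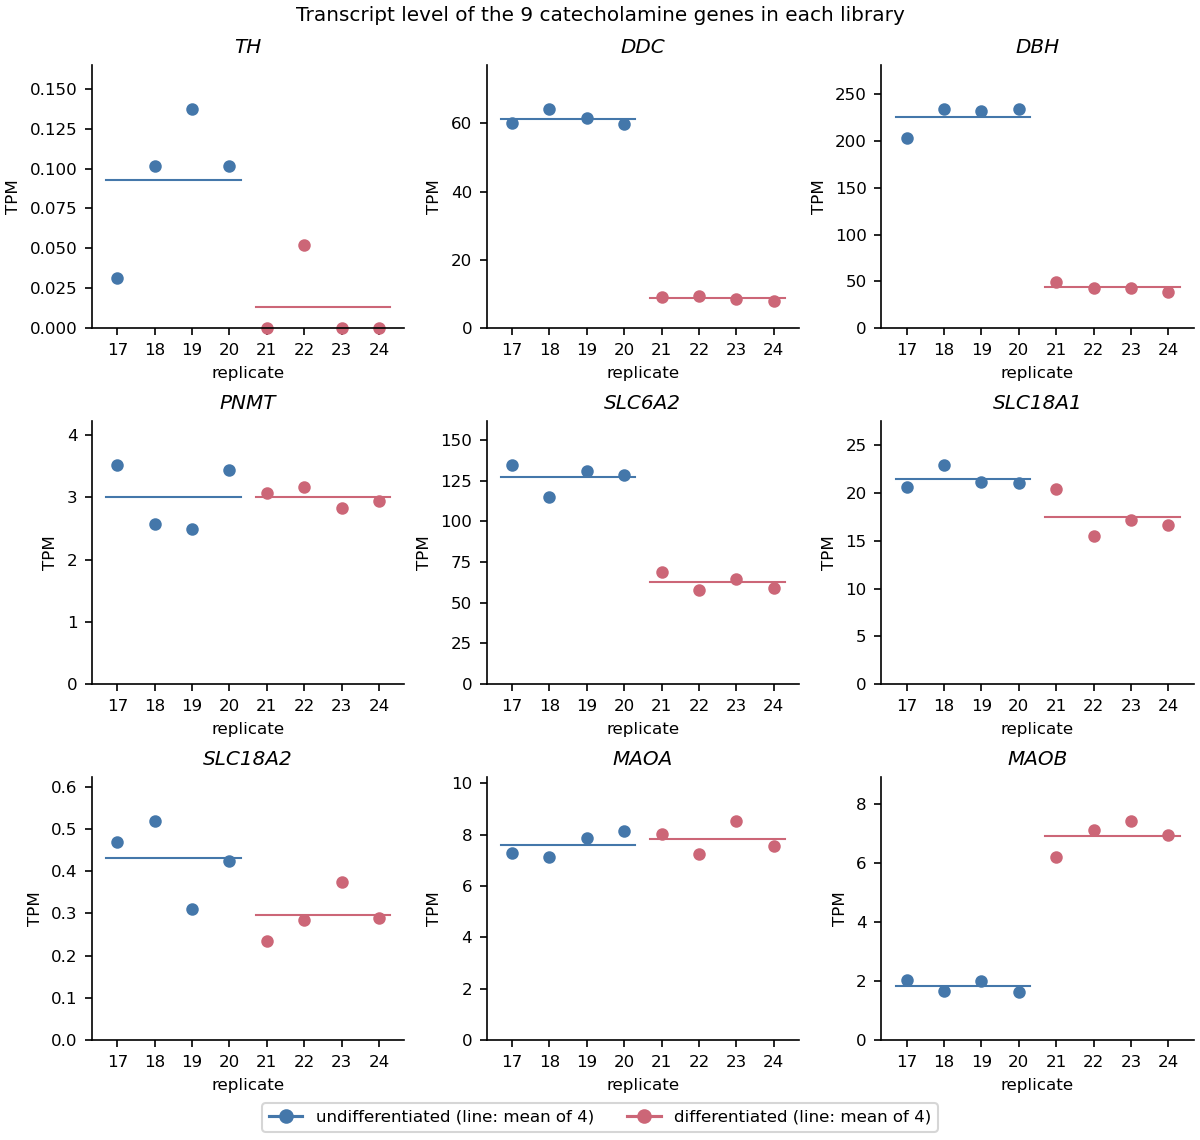
TPM (vertical axes, each from 0) of the 9 genes in each of the 8 libraries, by replicate number, with a line at the mean of each group of 4. DDC, DBH and SLC6A2 sit lower and MAOB higher in every differentiated library than in any undifferentiated library, while TH and SLC18A2 stay under 1 TPM.

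TH (ENSG00000180176, chr11:2163929-2171877, minus strand on GRCh38), which encodes the rate-limiting enzyme, was the lowest of the 9 genes in both groups. It measured 0.0316, 0.101, 0.137 and 0.102 TPM in undifferentiated replicates 17 to 20. In differentiated replicates 21, 23 and 24 it was listed at 0, and in replicate 22 it measured 0.0520 TPM. The groups overlapped. None of the 11 TH transcripts in the table reached a mean of 1 TPM. In undifferentiated cells the DDC mean of 61.3 TPM and the DBH mean of 226 TPM therefore stood beside a TH mean of 0.0929 TPM.

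DDC (ENSG00000132437, chr7, minus strand), which makes dopamine and, in other cells, serotonin, had the largest log2(TPM+1) difference of the 7 tested genes. It measured 60.0, 64.2, 61.5 and 59.7 TPM in undifferentiated replicates 17 to 20. In differentiated replicates 21 to 24 it measured 9.02, 9.42, 8.46 and 8.10 TPM. The undifferentiated libraries were all high and close together, the differentiated ones all low, and the groups did not overlap. The log2 fold change was -2.68 ± 0.06 SE (95% interval -2.81 to -2.55, limma adjusted p = 1.50e-08). The gene went from above 86.7% of tested genes to above 39.0% of them. DDC-201, the full-length coding transcript of 1938 bases, carried 68.4% ± 1.65 of the DDC level in undifferentiated and 67.8% ± 9.47 in differentiated cells (SD, n = 4).

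DDC can start from either of the sequences printed above, and the neuronal-type start is the one known from neurons and chromaffin cells, the upstream one from liver and kidney. The 4 transcripts with their first base at the neuronal-type start (50561048 to 50561054) summed to 55.1, 59.1, 57.9 and 54.2 TPM in undifferentiated replicates 17 to 20 and to 8.54, 7.81, 8.46 and 7.86 TPM in differentiated replicates 21 to 24. The 2 transcripts that begin further upstream (50564334 and 50565457) summed to 0.149, 0, 0.0389 and 0.0390 TPM and were listed at 0 in all differentiated libraries. Nearly all of the DDC level from transcripts that reach either start thus lay at the neuronal-type start in both groups. Besides DDC-201, limma called DDC-208, a transcript annotated as a target of nonsense-mediated decay, lower, from 12.4 ± 0.701 to 1.30 ± 0.0815 TPM (adjusted p = 4.23e-07). DDC-204, a coding transcript from the same start, measured 1.69 ± 0.543 and 0.961 ± 0.412 TPM and was not called (log2 fold change -0.46, limma adjusted p = 0.146). DDC-210, a retained-intron transcript that reaches neither start, was also called lower, from 3.56 ± 0.815 to 0.458 ± 0.531 TPM (limma adjusted p = 0.00176).

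DBH (ENSG00000123454, chr9:133635348-133659344, plus strand), the enzyme that defines noradrenergic cells, was the most abundant of the 9 in undifferentiated cells. It measured 204, 234, 231 and 234 TPM in undifferentiated replicates 17 to 20. In differentiated replicates 21 to 24 it measured 49.5, 42.6, 43.4 and 38.9 TPM. Replicate 17 was the lowest of its group, and the groups were far apart. On the log2 scale the fold change was -2.35 ± 0.08 SE (95% interval -2.53 to -2.17, limma adjusted p = 1.32e-07). DBH moved from above 97.4% of tested genes to above 78.7% of them. Both of its transcripts fell. DBH-202, of 3775 bases and 12 exons, went from 191 ± 11.3 to 38.0 ± 3.55 TPM, and the 3-exon DBH-201, of 769 bases, from 34.3 ± 4.33 to 5.56 ± 2.42 TPM.

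An antisense gene, DBH-AS1 (chr9:133654586-133657313, minus strand), lies within DBH and was picked out after its values were seen. It measured 0.747, 0.340, 0.659 and 0.500 TPM in undifferentiated replicates 17 to 20, and 2.22, 2.95, 2.48 and 2.23 TPM in differentiated replicates 21 to 24, all higher. limma called it higher (log2 fold change 1.15 ± 0.13 SE, adjusted p = 1.18e-04), opposite to DBH. Of its 2139 exon bases, 118 (5.52%) fall inside DBH exons. Whether the authors' counting used strand is not given in the sources used here, so reads in the shared bases cannot be assigned to either gene with certainty.

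PNMT (ENSG00000141744, chr17:39667981-39670475, plus strand), the last enzyme, was low in both groups and did not pass the test. It measured 3.52, 2.57, 2.49 and 3.44 TPM in undifferentiated and 3.08, 3.16, 2.83 and 2.94 TPM in differentiated replicates, with the differentiated values inside the undifferentiated range. The log2 fold change was 0.01 (95% interval -0.25 to 0.27, limma adjusted p = 0.961), and -0.09 and -0.22 after median-of-ratios scaling and quantile normalization. Its main transcript, PNMT-202, measured 1.95 ± 0.398 and 1.83 ± 0.0468 TPM. PENK, another product of chromaffin cells, was listed at 0 in all libraries.

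Of the vesicular transporters, SLC18A1, the form known from endocrine cells, made up nearly all of the level. SLC18A1 (ENSG00000036565, chr8:20144855-20183206, minus strand) measured 20.7, 22.9, 21.1 and 21.1 TPM in undifferentiated replicates 17 to 20. In differentiated replicates 21 to 24 it measured 20.4, 15.5, 17.2 and 16.7 TPM. The groups did not overlap, but replicate 21 lay just under the lowest undifferentiated library. The log2 fold change was -0.29 ± 0.08 SE (limma adjusted p = 0.0195). The call was lost in lane 8 alone (log2 fold change -0.27, limma adjusted p = 0.126), with the lane as a term (adjusted p = 0.0954), without undifferentiated replicate 18 (-0.26, adjusted p = 0.0575) and without differentiated replicate 24 (-0.27, adjusted p = 0.0510).

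The level of SLC18A1 was spread over several transcripts. SLC18A1-202, of 2753 bases and the most abundant, measured 7.35, 9.32, 9.87 and 8.96 TPM in undifferentiated and 9.11, 8.24, 9.51 and 9.47 TPM in differentiated replicates, with a log2 fold change of 0.04 (95% interval -0.19 to 0.27, limma adjusted p = 0.828). It held 41.4% ± 4.65 of the gene in undifferentiated and 52.5% ± 5.38 in differentiated cells (SD, n = 4), and these shares overlapped. SLC18A1-204 was the only SLC18A1 transcript called, from 2.41 ± 0.349 to 1.34 ± 0.275 TPM (log2 fold change -0.54, limma adjusted p = 0.0183), and this call was lost in lane 8 alone (adjusted p = 0.186) and without undifferentiated replicates 17, 18 or 19 or differentiated replicate 23 (adjusted p = 0.0573, 0.0547, 0.0529 and 0.0536). With only transcripts of 1000 bases or longer, the SLC18A1 log2 fold change was -0.14 (limma adjusted p = 0.0376).

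SLC18A2 (ENSG00000165646, chr10, plus strand), the form of central and sympathetic neurons, measured 0.470, 0.519, 0.311 and 0.425 TPM in undifferentiated and 0.235, 0.284, 0.375 and 0.289 TPM in differentiated replicates. The groups overlapped and the gene was under the minimum for testing. As a share of both transporters within each library, SLC18A1 took 98.0% ± 0.361 in undifferentiated and 98.3% ± 0.410 in differentiated cells (SD, n = 4). These shares overlapped (difference 0.274 percentage points, exact two-sided permutation test p = 0.343, adjusted over 3 ratios p = 0.343). The promoter of SLC18A2, printed above, is 78.8% G and C over 250 bases.

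SLC6A2 (ENSG00000103546, chr16, plus strand), which returns noradrenaline to the cell, fell but stayed high. It measured 135, 115, 131 and 129 TPM in undifferentiated replicates 17 to 20. In differentiated replicates 21 to 24 it measured 68.7, 57.9, 64.7 and 59.1 TPM. The groups were well apart, with a log2 fold change of -1.01 ± 0.07 SE (95% interval -1.18 to -0.85, limma adjusted p = 8.03e-06). The dopamine transporter SLC6A3, its counterpart in dopamine neurons, measured 0.0442 TPM in undifferentiated replicate 17 and was listed at 0 in the other 7 libraries.

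Much of the SLC6A2 level lay in a short transcript. SLC6A2-210, of 743 bases and 3 exons at the 3′ end of the gene, went from 59.6 ± 6.49 to 32.0 ± 2.79 TPM and made up 46.8% ± 2.23 and 51.4% ± 6.24 of the gene (SD, n = 4). SLC6A2-206, of 3160 bases, went from 37.9 ± 1.99 to 16.5 ± 4.26 TPM, and SLC6A2-201, of 2858 bases, from 16.6 ± 1.33 to 8.98 ± 0.923 TPM. All 6 SLC6A2 transcripts with a mean of 1 TPM or more were called lower. For the scarcer of them, the call was lost in lane 8 alone (SLC6A2-207, limma adjusted p = 0.0740, and SLC6A2-208, adjusted p = 0.109), and for SLC6A2-208 also without undifferentiated replicates 18 or 20 (adjusted p = 0.0577 and 0.0606). With only transcripts of 1000 bases or longer, the log2 fold change of the gene was -1.12 (limma adjusted p = 1.48e-05). Over the 9 genes, 20 of 56 transcripts were tested, 12 were called lower and 1, MAOB-201, higher, where 10.6% of 53044 tested transcripts were called lower and 18.8% higher.

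**Figure D2:**
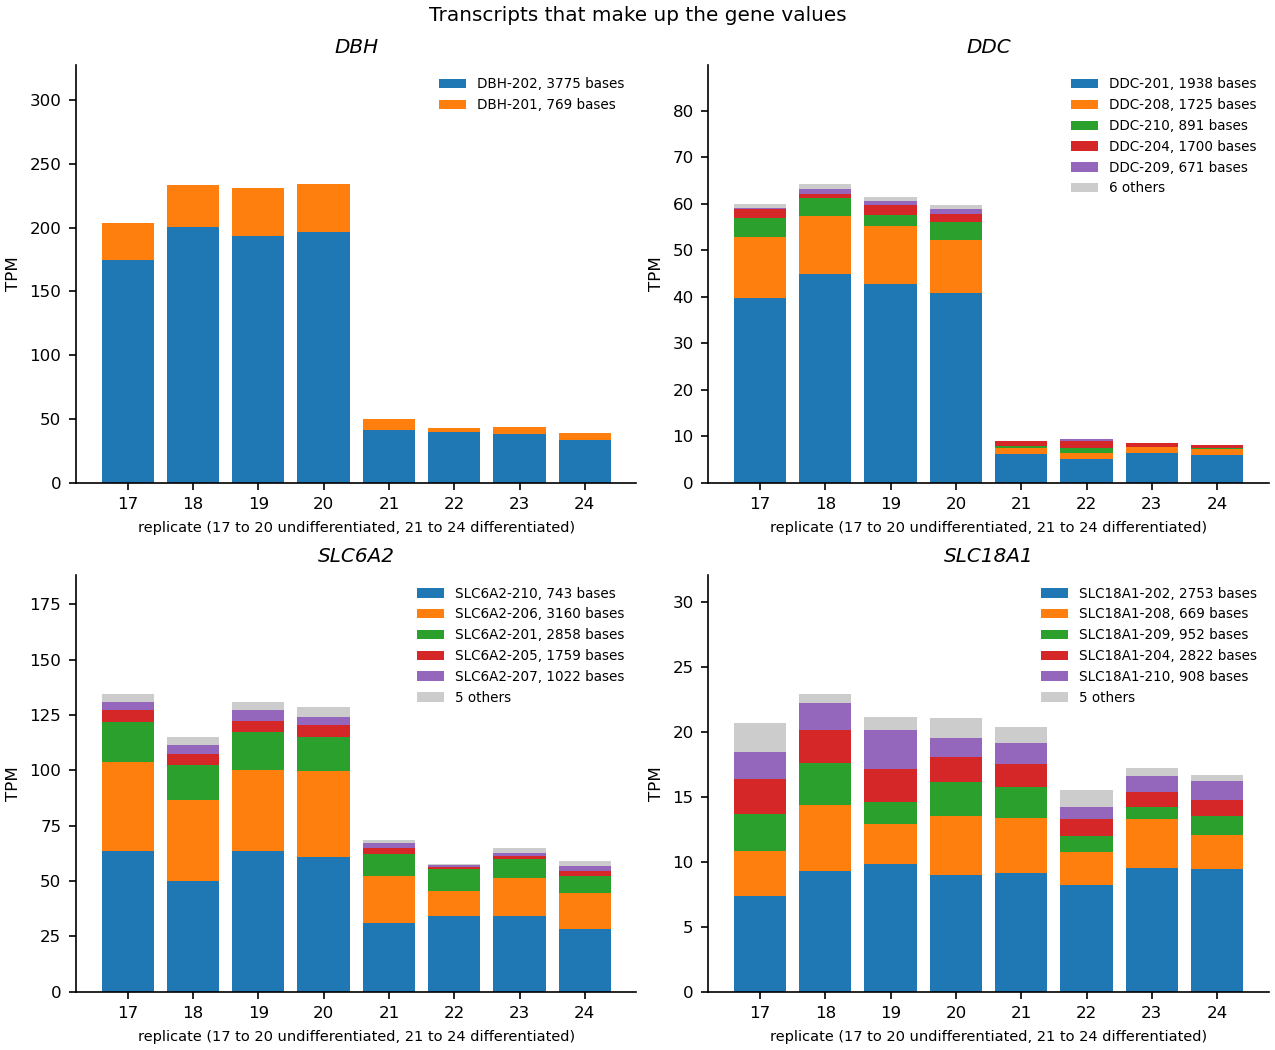
TPM (vertical axes, from 0) of up to 5 most abundant transcripts of DBH, DDC, SLC6A2 and SLC18A1, stacked for each library by replicate number, with the rest in grey. The SLC18A1-202 block is of similar height in all 8 libraries (7.35 to 9.87 TPM), while the DBH and DDC stacks shrink in every differentiated library.

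The monoamine oxidases differed from each other in response. MAOB (ENSG00000069535, chrX:43766611-43882447, minus strand), which also breaks down phenylethylamine, measured 2.02, 1.66, 2.01 and 1.65 TPM in undifferentiated replicates 17 to 20. In differentiated replicates 21 to 24 it measured 6.21, 7.12, 7.44 and 6.96 TPM, all higher. Its log2 fold change was 1.48 ± 0.09 SE (95% interval 1.28 to 1.69, limma adjusted p = 3.21e-06). MAOB-201, its coding transcript of 2566 bases, rose from 1.62 ± 0.208 to 6.52 ± 0.516 TPM.

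MAOA (ENSG00000189221, chrX:43654907-43746824, plus strand), which prefers noradrenaline and serotonin, measured 7.28, 7.14, 7.86 and 8.13 TPM in undifferentiated and 8.02, 7.25, 8.53 and 7.55 TPM in differentiated replicates. The groups overlapped, with a log2 fold change of 0.04 (95% interval -0.13 to 0.20, limma adjusted p = 0.692). MAOA turned to -0.08 after median-of-ratios scaling and to -0.21 after quantile normalization, where it passed as lower (adjusted p = 0.0491). MAOA-201 measured 7.15 ± 0.327 and 7.15 ± 0.329 TPM.

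A ratio of genes within a library does not depend on how libraries are scaled. MAOA made up 78.2%, 81.1%, 79.6% and 83.2% of the summed MAOA and MAOB level in undifferentiated replicates 17 to 20, and 56.4%, 50.5%, 53.4% and 52.0% in differentiated replicates 21 to 24. The share fell by 27.5 percentage points, with no overlap (exact two-sided permutation test p = 0.0286, the smallest that 4 against 4 libraries allow, adjusted over 3 ratios p = 0.0429). The log2 ratio of DBH to DDC was 1.76, 1.87, 1.91 and 1.97 in undifferentiated and 2.46, 2.18, 2.36 and 2.26 in differentiated replicates. DDC was thus lowered more than DBH, by a mean difference of 0.44 on the log2 scale (exact two-sided permutation test p = 0.0286, adjusted p = 0.0429).

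**Figure D3:**
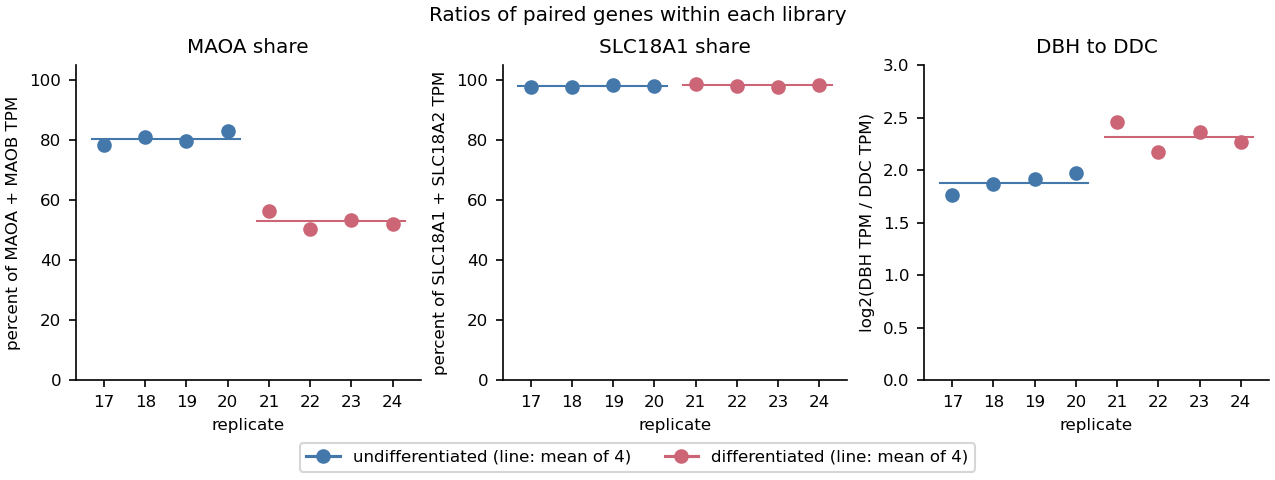
Share of MAOA in MAOA plus MAOB (percent), share of SLC18A1 in SLC18A1 plus SLC18A2 (percent) and log2 ratio of DBH to DDC in each library, by replicate number, with a line at each group's mean. The MAOA share is 78.2% to 83.2% in undifferentiated and 50.5% to 56.4% in differentiated libraries, and the SLC18A1 share is above 97% in all.

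The order of the levels also changed. In undifferentiated cells it ran DBH, SLC6A2, DDC, SLC18A1, MAOA, PNMT, MAOB, SLC18A2 and TH, and neighbours in this order did not overlap in range. In differentiated cells it ran SLC6A2, DBH, SLC18A1, DDC, MAOA, MAOB, PNMT, SLC18A2 and TH. There, the range of DDC overlapped with that of MAOA, and DDC was the higher in 3 of 4 libraries, so these neighbours did not differ beyond their spread. The ranges of MAOA and MAOB also overlapped, but MAOA was the higher in 4 of 4 libraries, with a ratio of MAOA to MAOB of 1.02 to 1.29 within a library. The ratio of DBH to SLC6A2 was 1.78 ± 0.213 in undifferentiated and 0.697 ± 0.0377 in differentiated cells (SD, n = 4). The ratio of SLC18A1 to DDC ranged from 0.343 to 0.358 over the undifferentiated and from 1.64 to 2.26 over the differentiated libraries. DBH was the higher of its pair in 4 of 4 undifferentiated libraries and SLC6A2 in 4 of 4 differentiated ones. In differentiated cells the order of this pair depended on counting the 743-base SLC6A2-210, which made up 51.4% ± 6.24 of SLC6A2. Among longer transcripts, DBH-202 measured 38.0 ± 3.55 TPM there, and the most abundant of SLC6A2, SLC6A2-206, measured 16.5 ± 4.26 TPM.

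Genes that supply or extend the chain were taken from 6 lists of 58 genes, of which 57 were in the data and 32 were tested. limma called 13 higher and 9 lower, with a median log2 fold change of 0.20 against 0.10 for all tested genes. This is 40.6% higher and 28.1% lower, against 33.9% and 17.4% of all tested genes. After median-of-ratios scaling 7 were called higher and 9 lower (21.9% and 28.1%, against 26.6% and 26.2% of all genes), and after quantile normalization 10 and 9 (31.2% and 28.1%, against 24.4% and 29.9%). The medians of all genes were then -0.02 and -0.07. The counts of single lists below stand against the same shares of all genes.

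Among 7 tested genes of tetrahydrobiopterin, the cofactor of TH, 3 were called higher and 2 lower, but 0 higher and 2 lower after median-of-ratios scaling. GCH1, the rate-limiting enzyme of this cofactor, measured 40.4, 44.1, 43.3 and 43.7 TPM in undifferentiated replicates 17 to 20 and 23.9, 27.7, 23.9 and 23.6 TPM in differentiated replicates 21 to 24. Its groups were apart, with a log2 fold change of -0.77 ± 0.06 SE (limma adjusted p = 1.73e-05). QDPR, which regenerates the cofactor, went from 33.3 ± 0.596 to 44.9 ± 3.70 TPM and lost its call after median-of-ratios scaling (limma adjusted p = 0.0518).

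Of 8 tested genes that supply tyrosine, ascorbate and copper or assist the hydroxylase, 2 were called higher and 4 lower, and 1 and 4 after median-of-ratios scaling. DNAJC12, a cochaperone of TH and its relatives, fell from 69.0 ± 2.44 to 26.8 ± 1.58 TPM (limma adjusted p = 3.39e-07). The aromatic amino acid transporter SLC16A10 fell from 5.76 ± 0.779 to 1.60 ± 0.225 TPM. CYB561, which passes electrons from ascorbate into the vesicle for DBH, fell from 220 ± 8.41 to 149 ± 20.1 TPM (log2 fold change -0.57, limma adjusted p = 0.00127). ATP7A, the copper pump that loads secreted copper enzymes such as DBH, measured 14.1, 15.9, 13.5 and 14.4 TPM in undifferentiated replicates 17 to 20 and 81.5, 27.4, 49.5 and 70.1 TPM in differentiated replicates 21 to 24. All were higher, with a wide spread (log2 fold change 1.80 ± 0.30 SE, limma adjusted p = 0.00120).

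In the other steps of breakdown, 3 of 10 tested genes were called higher and 2 lower, and 1 and 2 after median-of-ratios scaling. AKR1B1, an aldose reductase that reduces the aldehydes left by monoamine oxidase, fell from 272 ± 4.42 to 176 ± 11.5 TPM, and the aldehyde dehydrogenase ALDH1B1 from 16.8 ± 0.586 to 13.3 ± 0.586 TPM. The sulfotransferase SULT1A3 rose from 19.03 ± 1.55 to 28.3 ± 2.85 TPM, with an uncertain value because its near-identical copy SULT1A4 shares reads with it.

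Relatives of the main enzymes were also measured. MOXD1, a monooxygenase related to DBH, rose from 0.551 ± 0.128 to 10.8 ± 0.652 TPM (log2 fold change 2.92 ± 0.09 SE, limma adjusted p = 8.08e-08). PAM, the copper enzyme that amidates neuropeptides and shares its fold with DBH, rose from 49.7 ± 1.59 to 264 ± 12.5 TPM. Both were called, and the other 4 genes of this list were under the minimum for testing. Of 8 other amine transporters 2 were tested. SLC29A4, a plasma membrane monoamine transporter, rose from 18.7 ± 1.05 to 27.0 ± 2.94 TPM (limma adjusted p = 0.00100). Of 14 adrenergic and dopamine receptors 3 were tested. The alpha-2 receptors ADRA2A (0.218 ± 0.00396 to 2.21 ± 0.203 TPM) and ADRA2C (4.52 ± 0.482 to 8.25 ± 1.19 TPM) rose. The dopamine receptor DRD2 fell from 2.10 ± 0.479 to 1.10 ± 0.259 TPM, a call lost in lane 8 alone (limma adjusted p = 0.149) and with the lane as a term (adjusted p = 0.105).

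Of 17 tested transcription factors known to act on these genes, 9 fell and 5 rose (52.9% and 29.4%, against 17.4% and 33.9% of all tested genes), with a median log2 fold change of -0.40. After median-of-ratios scaling 10 fell and 5 rose (58.8% and 29.4%, against 26.2% and 26.6% of all genes). The difference of these shares from those of all genes was not tested. The LIM homeodomain factor ISL1 fell from 179 ± 3.09 to 46.8 ± 2.74 TPM and HAND1 from 59.1 ± 2.92 to 17.9 ± 1.69 TPM. A further 5 factors of the list were picked out after their values were seen. HAND2 measured 440 ± 7.48 and 422 ± 20.0 TPM and was not called (limma adjusted p = 0.253), but was called lower after median-of-ratios scaling (log2 fold change -0.19, limma adjusted p = 0.0101). PHOX2A, a homeodomain activator of DBH, measured 214, 228, 241 and 213 TPM in undifferentiated and 374, 577, 391 and 367 TPM in differentiated replicates. Its groups were apart, and it rose (log2 fold change 0.91, limma adjusted p = 8.07e-04). Among factors known to act on the monoamine oxidase promoters, KLF11 went from 2.63 ± 0.0454 to 6.19 ± 0.322 TPM (log2 fold change 0.98, limma adjusted p = 7.23e-06) and SP1 from 38.8 ± 1.35 to 59.7 ± 15.1 TPM (limma adjusted p = 0.0209). The SP1 call was lost in lane 8 alone (limma adjusted p = 0.0981) and with the lane as a term (adjusted p = 0.0643). It was also lost without undifferentiated replicate 19 (adjusted p = 0.0533) and without differentiated replicate 24 (adjusted p = 0.0560). CDCA7L, a repressor of MAOA, went from 49.2 ± 2.38 to 32.6 ± 1.47 TPM (limma adjusted p = 3.40e-05). On the same list, FOXO1 rose from 0.808 ± 0.0490 to 3.85 ± 0.911 TPM (limma adjusted p = 4.95e-05). EGR1, also listed, rose from 3.42 ± 1.19 to 10.6 ± 1.68 TPM (limma adjusted p = 7.86e-04). SP3 measured 53.1 ± 1.97 and 57.5 ± 1.87 TPM and was not called (limma adjusted p = 0.0583). NR3C1 measured 4.91 ± 0.266 and 6.28 ± 1.03 TPM and was not called either (limma adjusted p = 0.0587). Whether any of these factors acts on MAOA or MAOB here was not tested.

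**Figure D4:**
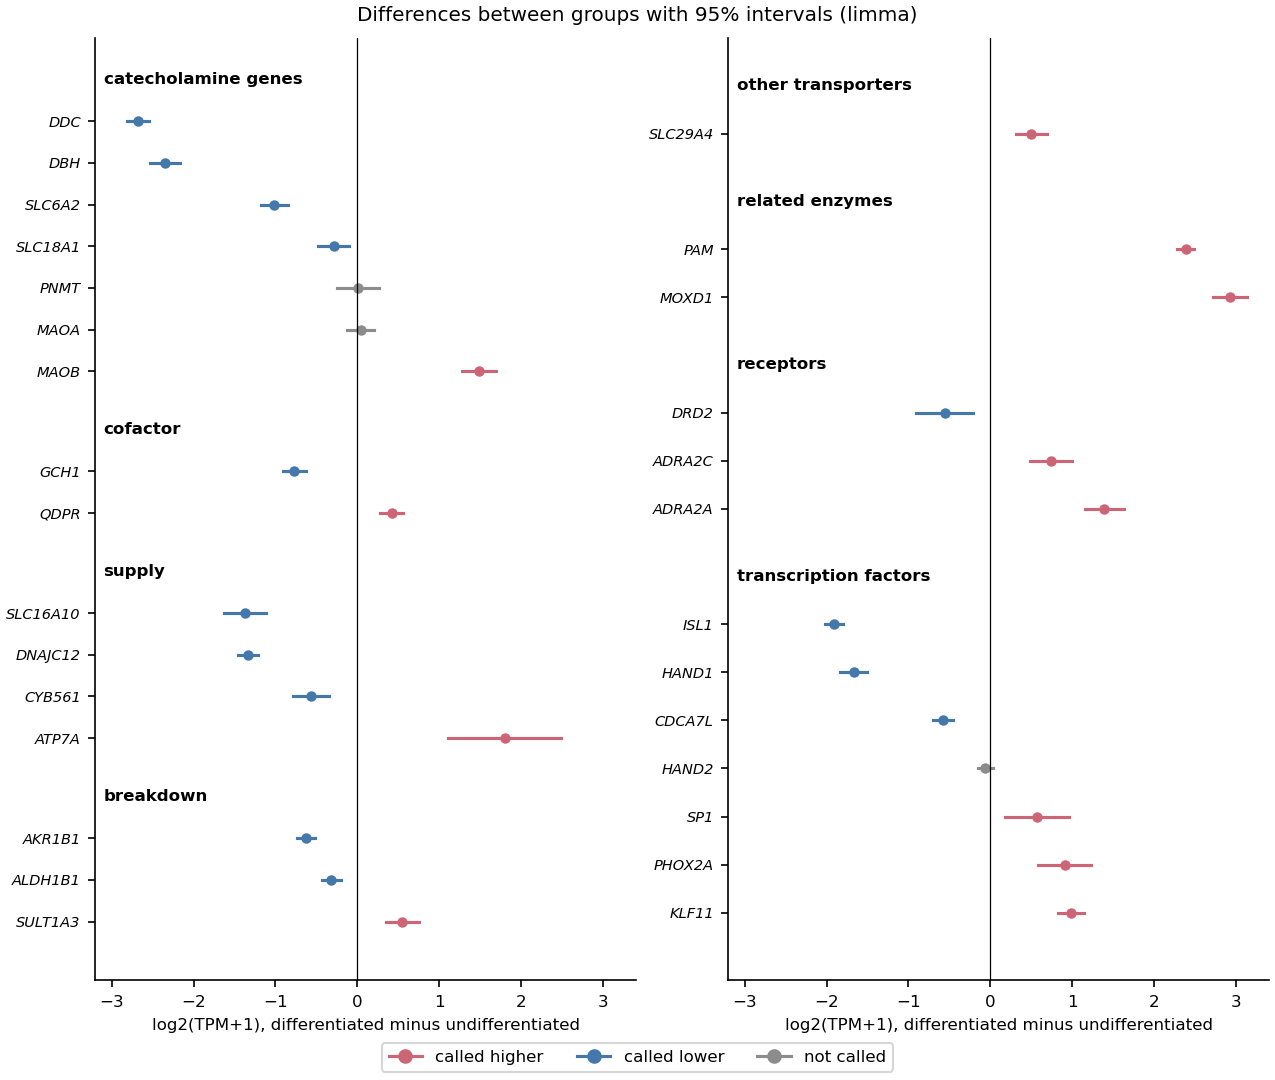
Difference in log2(TPM+1) between groups (horizontal axis, differentiated minus undifferentiated) with its 95% interval from limma for the tested catecholamine genes and for the tested genes of the 7 lists that the text names, except FOXO1, EGR1, SP3 and NR3C1. DDC and DBH lie furthest to the left, at -2.68 and -2.35, and MOXD1 furthest to the right, at 2.92.

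The genes whose profile over the 8 libraries lay closest to those of DDC and MAOB were found among protein-coding tested genes, by the root mean square difference of log2(TPM+1) centred on each gene's mean. For DDC these were CBLN4 (0.090), SIX3 (0.095), GFRA3 (0.103), CAPN6 (0.105) and LMO4 (0.105). CBLN4 went from 5.98 ± 0.358 to 0.00756 ± 0.00873 TPM, and SIX3 from 40.1 ± 1.37 to 5.64 ± 0.380 TPM. For MAOB they were TMEM179B (0.048), IFI27L2 (0.056), TP53I13 (0.065), SCRG1 (0.068) and CD151 (0.072). TMEM179B went from 17.7 ± 1.22 to 49.9 ± 4.64 TPM. This likeness is on a scale with a pseudocount of 1. With a pseudocount of 0.1 the log2 fold changes of CBLN4, GFRA3 and CAPN6 were -5.82, -4.13 and -4.22, against -2.80 for DDC, while SIX3 and LMO4 stayed near DDC at -2.81 and -2.70. MAOB was then at 1.86, against 1.49 for TMEM179B, 1.47 for IFI27L2, 1.63 for TP53I13, 2.73 for SCRG1 and 1.47 for CD151.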

How the data were processed

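RNA was measured by stranded mRNA sequencing in 4 undifferentiated and 4 differentiated SH-SY5Y libraries, grouped by their titles. The authors deposited TPM values for 194993 Ensembl transcripts, scaled to 1000000 per library. Salmon, FastQC 0.11.2 and the build GRCh37 are named per the submitters' processing notes; the annotation release, Salmon's settings and its use of strand are not stated there. Transcripts were matched by identifier to GENCODE 29 (180930, or 92.8%, holding 93.2% to 95.0% of TPM) and summed per gene, and positions are on GRCh38. Salmon divides reads shared by similar transcripts, so the split among transcripts of a gene is an estimate. Genes, and separately transcripts, with a mean of 1 TPM or more were tested with limma 3.58.1 (R 4.3.3, intensity trend, group as the only term) on log2(TPM+1), which understates changes at low levels, with calls (two-sided) made where the p adjusted by Benjamini-Hochberg was under 0.05. The steps were tested on simulated data. Ratios were tested with exact permutation (scipy 1.17.1). Alternatives covered the pseudocount, filters, scaling, lanes, robust fitting, protein-coding transcripts, each replicate left out and, added after seeing the data, transcripts of 1000 bases or longer. Named were all 9 genes, their transcripts with a mean of 1 TPM or more, CYB561, GCH1, SLC6A3, up to 3 called genes per list with the largest changes, and the 5 genes closest in profile to the largest rise and the largest fall; some genes that this rule names are not reported here. The genes and the 7 lists (cofactor, supply, breakdown, other amine transporters, related enzymes, receptors, transcription factors) and the cell type markers were chosen with earlier results of these data known.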

Additional observations from a re-analysis of the deposited data

Results flagged for a closer look

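Of 132 groups of 4 libraries examined, 9 had a single library far from the other 3. For normally distributed values, chance gives such a gap in about 1 of 20 groups. Among the catecholamine genes, DBH was 204 TPM in undifferentiated replicate 17 against 231 to 234 TPM in the others, and TH was 0.0520 TPM in differentiated replicate 22 where the others were listed at 0. SLC6A3 was 0.0442 TPM in undifferentiated replicate 17 and listed at 0 in the others of its group. For TH and SLC6A3 the rate of 1 in 20 does not hold, since any single value above 0 beside 3 zeros is flagged. Differentiated replicate 22 also stood apart for GCH1 (27.7 TPM against 23.6 to 23.9), DRD2 (0.713 TPM against 1.22 to 1.24) and PHOX2A (577 TPM against 367 to 391). PAM was 52.1 TPM in undifferentiated replicate 20 against 48.7 to 49.1 TPM, and LMO4 was 28.98 TPM there against 30.7 to 31.0 TPM. SIX3 was 5.08 TPM in differentiated replicate 21 against 5.78 to 5.91 TPM.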

How the results depend on the processing

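No paired analysis was possible because the groups share no replicate number. DBH (log2 fold change -2.48 to -2.30), DDC (-2.85 to -2.53) and SLC6A2 (-1.14 to -0.98) kept their direction and call in all 18 alternatives, and MAOB (1.26 to 1.86) in the 17 that tested it. With a filter at a mean of 5 TPM, 0 of the 9 genes were called higher, since MAOB fell under it. After median-of-ratios scaling 7 of the other catecholamine genes were called higher instead of 13, as the median of all genes moved from 0.10 to -0.02. Within lane 8 the MAOA share fell by 28.3 percentage points and the DBH to DDC log2 ratio rose by 0.37 (adjusted p = 0.2 for both), where 2 against 4 libraries cannot go below an exact p of 0.133. Leaving out each replicate gave differences of -28.6 to -26.6 percentage points and 0.39 to 0.48, where 3 against 4 libraries cannot go below an exact p of 0.0571. Without the filter on low values, TH (-0.11, limma adjusted p = 0.0515) and SLC18A2 (-0.14, adjusted p = 0.132) did not pass. Read depth is unknown, and so is the counting error of the lowest levels (TH, SLC18A2).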
